A study of Mus musculus with 6 samples.

Results

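Proteasome genes of old mouse liver were followed in animals with and without Itpr2, an inositol trisphosphate receptor through which calcium leaves the endoplasmic reticulum. Members were all array probes outside the controls whose accession led to a mouse symbol of the form Psma to Psmg followed by a number, whatever their values. This rule found 50 genes on 62 probes, out of 39429 probes on the array. Genes were tested where either genotype had a signal well above background on its 3 arrays, which held for 48 of these 50 genes and for 18004 genes in all. Of the 18004, 13681 had a symbol. The others were accessions without a symbol, each counted as a gene, and shares of all genes include them. Each of the 48 was well above background on all 6 arrays. The rule includes Psmc3ip, a cofactor of meiotic recombination, and Psme3ip1, a protein that binds the activator encoded by Psme3, neither of which is a proteasome subunit.

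Total RNA came from frozen whole liver of 3 Itpr2KO mice and 3 wild-type mice, per the labels all on a C57Bl/6 background, 23 months old, untreated and kept as a survival cohort on standard diet in a pathogen-free facility. The series describes the mice as independent animals, so each array is 1 mouse. Which cells carry the deletion and the sex of the mice are points not given in the sources used here. Itpr2KO 1, wild-type 1 and wild-type 2 were on slide 1, and Itpr2KO 2, Itpr2KO 3 and wild-type 3 on slide 2. A level here is the log2 signal minus the 75th percentile of its array, and a change is the mean level of Itpr2KO minus that of wild type, on the same log2 scale.

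The share of probes well above background was 57.4% to 59.4% per array, and precision is limited by having 6 arrays. With mice as replicates, limma set the difference between genotypes against the spread between these animals, estimated in part from all genes. The targeted gene had levels of 2.54, 2.38 and 2.20 in Itpr2KO livers, against 3.04, 3.07 and 3.08 in wild-type livers, a comparison that checks nothing by itself, since where its probe lies relative to the deletion was not given in the labels. All 8 hepatocyte markers were measured, with summed signals, relative to the 75th percentile, of 1144 to 1588 in Itpr2KO and 1111 to 1288.5 in wild type. Of these 8 markers 7 had a higher mean in Itpr2KO, with a median change of 0.20, and 0 passed by limma with adjustment, while 1, Cps1, had an unadjusted p under 0.05, with a change of 0.49 ± 0.18 (SE, limma adjusted p = 0.813). Of all genes, 3.45% were higher at an unadjusted limma p under 0.05. Striated muscle transcripts set Itpr2KO 3 and wild-type 1 apart: the summed signal of 8 muscle markers was 88.3 on Itpr2KO 3 and 75.3 on wild-type 1, and between 0.195 and 0.244 on the other 4 arrays. Fat cell markers were also highest on Itpr2KO 3, with a summed signal of 13.7, against 0.0393 and 1.34 on the other Itpr2KO arrays and 0.159 to 1.64 in wild type, and Lep among them was not above background on any array. Results that rest on these arrays are given with and without them.

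The proteasome is the main protease of the cytosol and nucleus and degrades proteins that carry ubiquitin chains. Its 20S core is a barrel of alpha rings, which form the gate, around beta rings, of which the subunits encoded by Psmb5, Psmb6 and Psmb7 cut proteins. The 19S cap recognises ubiquitin, unfolds the substrate with a ring of ATPases and feeds it into the core. Interferon and immune cells favour the immunoproteasome, in which the products of Psmb8, Psmb9 and Psmb10 replace those of Psmb5, Psmb6 and Psmb7, and the activator made of the Psme1 and Psme2 products opens the core, so that peptides suited to antigen presentation are made.

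Expression of proteasome genes differed little between Itpr2KO and wild-type livers. By limma with Benjamini-Hochberg adjustment over all genes, 0 of the 48 tested members passed 0.05, where 0.00555% of all genes did, which is 1 gene. At an unadjusted p under 0.05, 1 member was counted, against 6.12% of all genes. It was lower in Itpr2KO, as were 2.66% of all genes, and 0 members were higher, against 3.45%, and the smallest adjusted p among members was 0.813. The change was under 0.2 in size for 43 of 48 members, against 59.6% of all genes, and reached 0.5 for 0 of 48, against 10.1% of all genes. These shares were not matched on signal strength. Genotypes did not overlap for 1 of 48 members, or 2.08%, against 12.0% of all genes. It was lower in Itpr2KO, against 5.14% of all genes, and 0 members were higher without overlap, against 6.89%.

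The precision of these values was moderate. The 95% interval of the change stayed within a 1.5-fold difference in either direction for 36 of 48 members and within a 2-fold difference for 44. Of the 31 core and cap genes, 27 stayed within 1.5-fold and 30 within 2-fold. The 4 immunoproteasome genes were less well bounded, with 0 within 1.5-fold and 2 within 2-fold. The widest bounds belonged to Psmb8, at -1.08, and Psme3, at 1.15. In whole tissue, fewer cells of a type and less RNA per cell cannot be told apart. A lower mean in Itpr2KO was found for 31 of 48 members, where 45.9% of all genes had one, and the median change was -0.050, against 0.022 over all genes. With arrays centred on their median in place of the 75th percentile, 45 of 48 members had a lower mean, with medians of -0.13 for members and -0.059 for all genes. The excess of lower means was lost without Itpr2KO 3, with 24 of 48 and a median change of -9.8e-06. The same held without wild-type 3, with 24 of 48 and a median of 0.0082. It stayed when another array was left out: 32 of 48 were lower without Itpr2KO 1, 41 without Itpr2KO 2, 41 without wild-type 1 and 39 without wild-type 2. With normexp background correction, 47 of 48 had a lower mean, with medians of -0.65 for members and 0.095 for all genes, and 9 of 48 members and 5950 of 18004 genes had an unadjusted p under 0.05, with 0 adjusted.

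**Figure D1:**
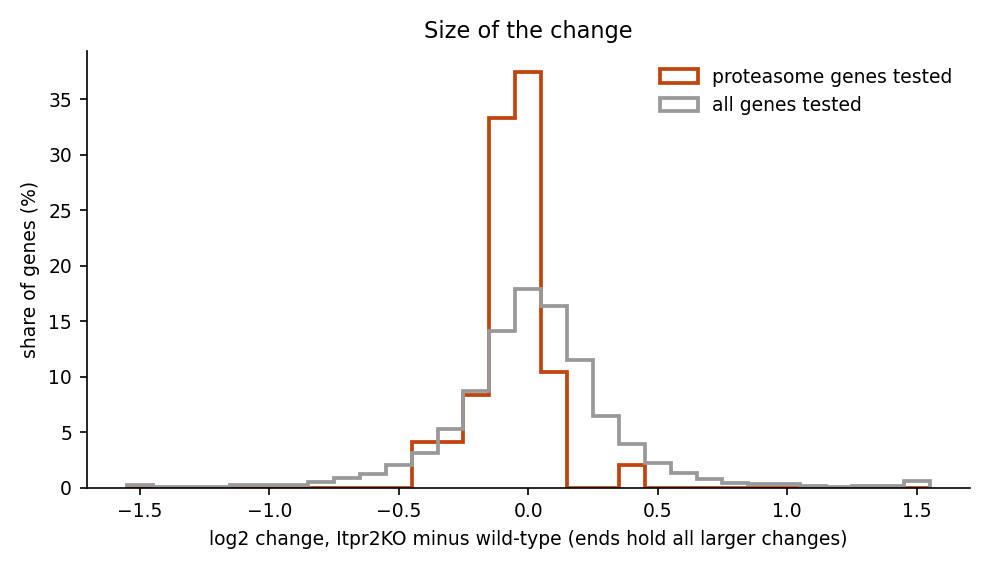
Share of genes, in percent, by log2 change (Itpr2KO minus wild-type) in bins of equal width, for the 48 tested proteasome genes and for all 18004 genes tested. The proteasome genes lie closer to 0, with 43 of 48 under 0.2 in size against 59.6% of all genes.

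The 20S core differed little. Its 14 members had changes from -0.14 to 0.13 with a median of 0.0031, and 6 had a lower and 8 a higher mean in Itpr2KO. Psmb5, which carries the chymotrypsin-like activity, had levels of 6.53, 6.48 and 6.58 in Itpr2KO livers, against 6.29, 6.50 and 6.40 in wild-type livers. The genotypes overlapped for Psmb5 only through Itpr2KO 2 and wild-type 2, and the change was 0.13 ± 0.12 (SE, limma adjusted p = 0.855). A second Psmb5 probe had a change of -0.014. Psmb6, with the caspase-like activity, had levels of 5.82, 6.03 and 6.02 in Itpr2KO livers, against 5.86, 5.77 and 5.98 in wild-type livers. Psmb7, with the trypsin-like activity, had levels of 3.44, 3.74 and 3.41 in Itpr2KO livers, against 3.55, 3.57 and 3.78 in wild-type livers. Both overlapped between genotypes, with changes of 0.083 ± 0.13 for Psmb6 and -0.11 ± 0.15 for Psmb7 (SE, n = 3 arrays each, limma adjusted p = 0.918 and 0.902).

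Among the alpha subunits, which carry no protease activity, Psma6 had the smallest unadjusted p. Its levels were 3.47, 3.59 and 3.38 in Itpr2KO livers, against 3.49, 3.60 and 3.78 in wild-type livers. Itpr2KO 2 lay among the wild-type values, and the change was -0.14 ± 0.14 (SE, limma adjusted p = 0.867), or -0.063 without wild-type 3. The other 6 alpha subunits, Psma1 to Psma5 and Psma7, had changes between -0.048 (Psma3) and 0.080 (Psma7).

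The 19S cap had a median change of -0.052 over 17 members, of which 11 had a lower and 6 a higher mean in Itpr2KO. Its 6 ATPases, Psmc1 to Psmc6, had changes from -0.14 to 0.028. Psmc4 had levels of 3.32, 2.98 and 2.82 in Itpr2KO livers, against 3.09, 3.12 and 3.33 in wild-type livers. Itpr2KO 1 lay within the wild-type range, and the change was -0.14 ± 0.17 (SE, limma adjusted p = 0.886). It was -0.033 without Itpr2KO 3 and -0.28 without Itpr2KO 1, and 0.21 within slide 1 against -0.43 within slide 2. Psmc5 had levels of 2.63, 2.70 and 2.50 in Itpr2KO livers, against 2.64, 2.69 and 2.70 in wild-type livers, with Itpr2KO 3 the lowest array and the other 2 Itpr2KO arrays close to the wild-type values, and with a change of -0.064 ± 0.12 (SE, limma adjusted p = 0.934), or -0.0092 without Itpr2KO 3.

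Of the 11 other cap subunits, 7 had a lower mean, with changes from -0.33 to 0.054. Psmd14, the deubiquitinase that removes the chain as the substrate enters, had levels of 1.60, 1.39 and 0.64 in Itpr2KO livers, against 1.26, 1.51 and 1.84 in wild-type livers. Itpr2KO 3 was the low value and wild-type 3 the high one, and the change of -0.33 ± 0.29 (SE, limma adjusted p = 0.852) was -0.042 without Itpr2KO 3. Psmd6, a scaffold subunit of the lid, had levels of 3.13, 2.95 and 2.71 in Itpr2KO livers, against 3.04, 3.08 and 3.14 in wild-type livers. Itpr2KO 1 lay within the wild-type range, and the change was -0.16 ± 0.15 (SE, limma adjusted p = 0.862), or -0.047 without Itpr2KO 3.

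**Figure D2:**
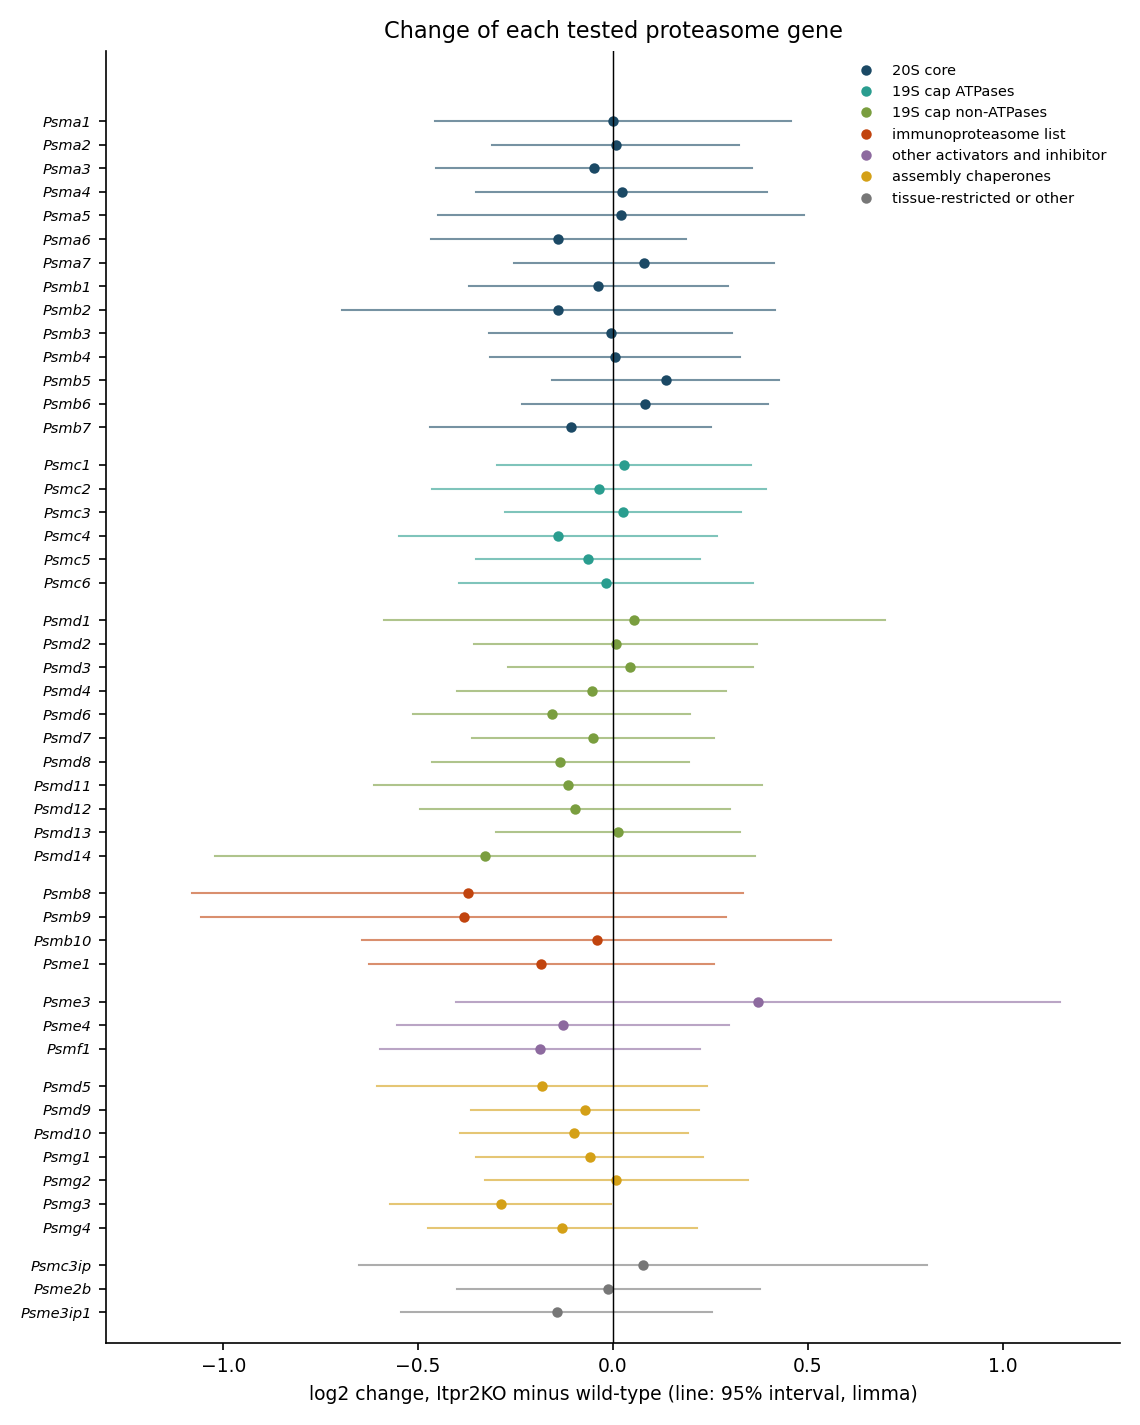
Log2 change (Itpr2KO minus wild-type) of the 48 tested genes by class, with 3 arrays per genotype, where points are limma estimates and lines their 95% intervals. Only the interval of Psmg3 leaves out 0, and the widest intervals are those of Psme3, Psmc3ip, Psmb8, Psmd14 and Psmb9.

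Many core and cap subunits shared their highest and their lowest array. On wild-type 3, 22 of the 31 core and cap genes had their highest level of the 6 arrays, where 10.5% of all genes did. On Itpr2KO 3, 18 of 31 had their lowest level, against 21.7% of all genes, and on wild-type 1 a further 9, against 10.0%. The mean of the core and cap levels, each taken relative to its own mean over the 6 arrays, was 0.053, 0.073 and -0.18 in Itpr2KO livers, against -0.10, -0.0058 and 0.16 in wild-type livers. Each genotype thus held a low array and at least 1 higher array. The low arrays were the 2 with muscle transcripts: 27 of 31 genes were lowest on Itpr2KO 3 or wild-type 1, against 31.8% of all genes, and the part of the muscle RNA in this was not tested.

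Leaving out both of those arrays gave median changes of 0.017 for the core and -0.0038 for the cap. Without wild-type 3 the medians were 0.089 and 0.025, and without Itpr2KO 3 they were 0.058 and 0.029, so the lower mean of the cap in Itpr2KO did not outlast the omission of either array. Within slide 1 the medians were 0.065 for the core and 0.14 for the cap, and within slide 2 they were -0.18 and -0.21, so the direction differed between slides. Slide 1 holds Itpr2KO 1 as its only knockout array and slide 2 holds wild-type 3 as its only wild-type array, and these values have no test.

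**Figure D3:**
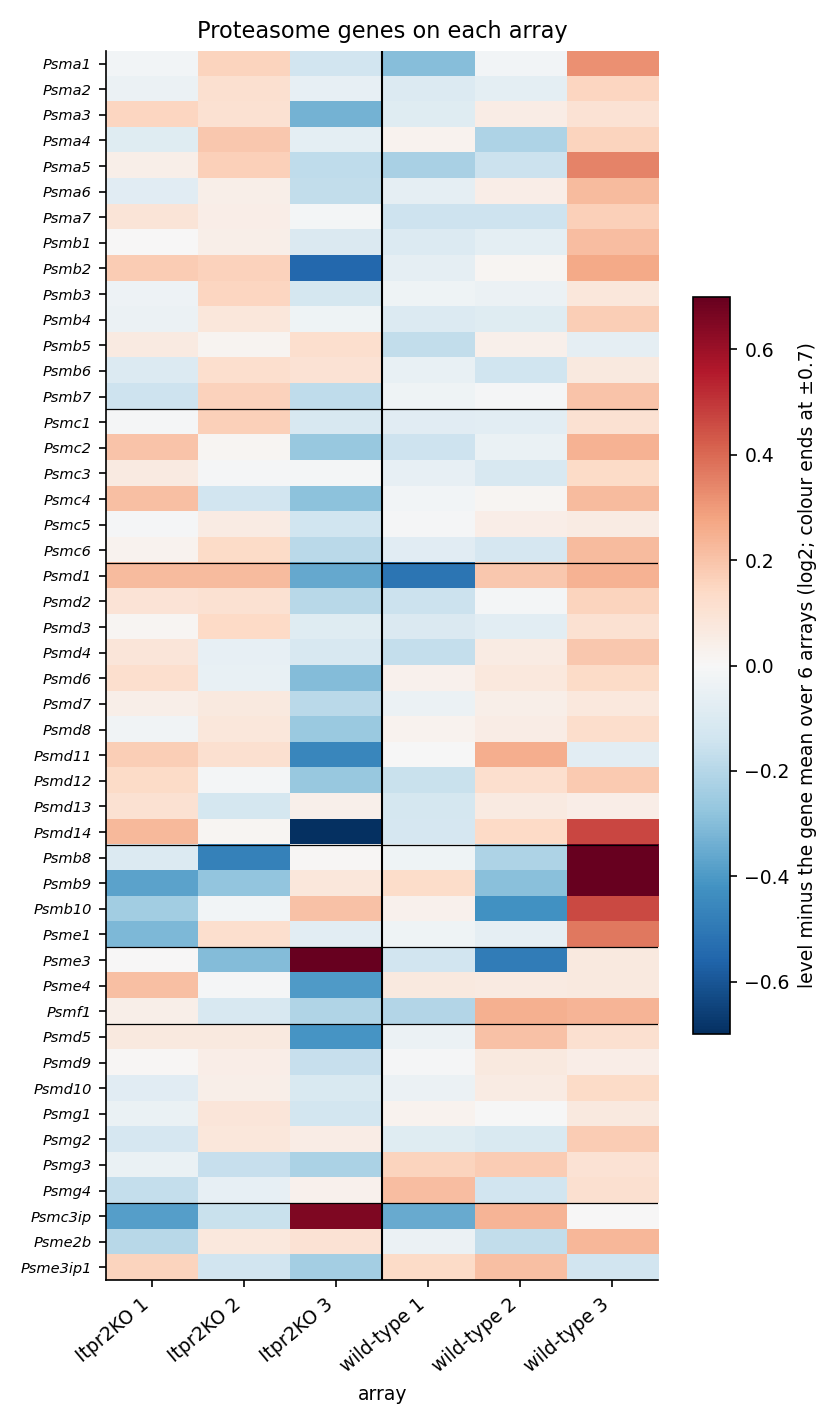
Level of each tested proteasome gene on each array relative to its own mean over the 6 arrays (colour, log2, ending at 0.7 in either direction), with lines between classes in the order core, ATPases, other cap subunits, immunoproteasome, other activators and inhibitor, assembly chaperones, other. Wild-type 3 is the highest array for 29 of 48 genes and Itpr2KO 3 the lowest for 26.

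The immunoproteasome genes had lower means in Itpr2KO, and that difference came with a high wild-type 3. Of the 5 genes in this list, 4 had a probe by accession, while Psme2 is represented only through its near copy Psme2b. All 4 had a lower mean, with a median change of -0.28, and 0 passed by limma, adjusted or at an unadjusted p under 0.05. All 4 had their highest level on wild-type 3. Without wild-type 3 the median was -0.054 and 3 of 4 had a lower mean, while without the 2 muscle arrays it was -0.40. Within slide 1, which does not hold wild-type 3, the median was -0.16, with Psmb8 at 0.029. Within slide 2 it was -0.60, and with the slide as a fixed block it was -0.41. The values within slides have no test.

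Psmb8, the catalytic subunit that takes the place of the Psmb5 product, had levels of 3.19, 2.81 and 3.29 in Itpr2KO livers, against 3.25, 3.06 and 4.09 in wild-type livers. Wild-type 3 alone lay above all Itpr2KO arrays, and the change was -0.37 ± 0.29 (SE, limma adjusted p = 0.843), or -0.063 without wild-type 3. Psmb9, the counterpart of Psmb6, had levels of 2.84, 2.94 and 3.29 in Itpr2KO livers, against 3.34, 2.92 and 3.95 in wild-type livers. Here wild-type 2 lay among the Itpr2KO values, and the change was -0.38 ± 0.28 (SE, limma adjusted p = 0.835), or -0.11 without wild-type 3.

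Psmb10, the counterpart of Psmb7, had levels of 4.06, 4.28 and 4.50 in Itpr2KO livers, against 4.33, 3.88 and 4.76 in wild-type livers. The ranges lay over each other, with wild-type 2 the lowest array, and the change was -0.042 ± 0.25 (SE, limma adjusted p = 0.984). Without wild-type 3 it was 0.18, the other way. Psme1, the alpha subunit of the activator, had levels of 4.13, 4.56 and 4.37 in Itpr2KO livers, against 4.42, 4.38 and 4.82 in wild-type livers. Itpr2KO 1 was its lowest and wild-type 3 its highest array, and the change was -0.18 ± 0.18 (SE, limma adjusted p = 0.869), or -0.044 without wild-type 3.

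**Figure D4:**
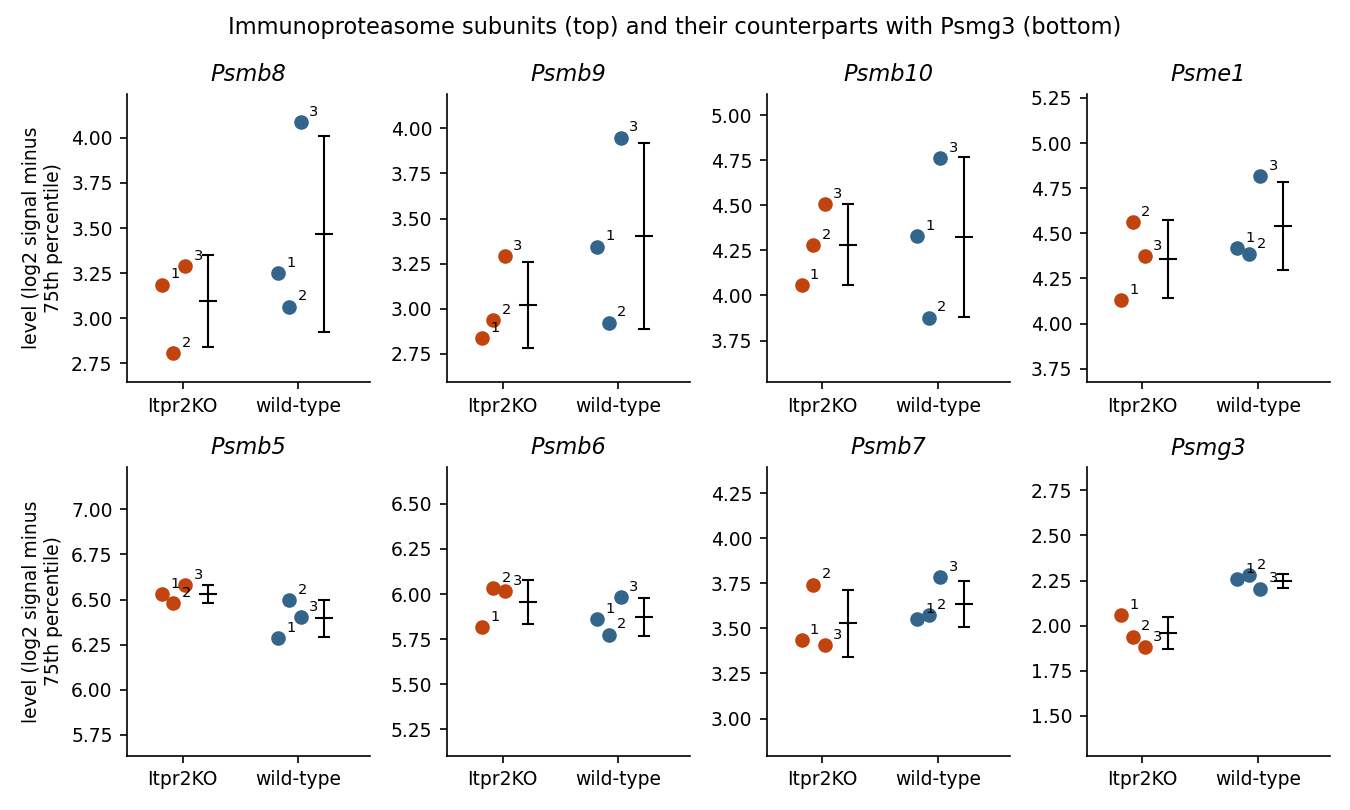
Levels (log2 signal minus the 75th percentile of the array) of 4 immunoproteasome genes, 3 constitutive catalytic genes and Psmg3 in Itpr2KO (left) and wild-type (right) livers, where points are arrays with their replicate number, bars are mean ± SD (n = 3), and all panels span the same log2 range. Wild-type 3 is the highest point for Psmb8, Psmb9, Psmb10 and Psme1, and for Psmg3 the genotypes do not overlap.

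Psme2b is a retrocopy of Psme2, the beta subunit of the activator, and its probes may also bind Psme2 RNA, which was not tested, so its values are uncertain. Its 3 probes had changes of -0.012, -0.19 and -0.62 from the brightest to the dimmest. All 3 had their highest level on wild-type 3, at 5.62, 4.35 and -2.89. The brightest probe had levels of 5.20, 5.46 and 5.49 in Itpr2KO livers, against 5.35, 5.22 and 5.62 in wild-type livers, and these overlapped (limma adjusted p = 0.995).

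Immunosubunits were then set against the constitutive subunits they replace, as the difference of their levels on the same array, which cancels scaling between arrays. Only the change of this difference between genotypes can be read, since different probes have different brightness. For Psmb8 minus Psmb5 the differences were -3.34, -3.68 and -3.29 in Itpr2KO livers, against -3.04, -3.43 and -2.32 in wild-type livers. For Psmb9 minus Psmb6 they were -2.98, -3.10 and -2.73 in Itpr2KO livers, against -2.52, -2.85 and -2.03 in wild-type livers. Both pairs overlapped between genotypes through wild-type 2. For Psmb10 minus Psmb7 they were 0.62, 0.54 and 1.10 in Itpr2KO livers, against 0.78, 0.30 and 0.98 in wild-type livers, with no separation.

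The pair differences changed by -0.51, -0.47 and 0.066 for Psmb8, Psmb9 and Psmb10, with exact two-sided permutation p of 0.3, 0.2 and 0.9, and 0.45, 0.45 and 0.9 after Benjamini-Hochberg adjustment over the 3 pairs. The smallest p that 3 against 3 arrays allow is 0.1. Without wild-type 3 these changes were -0.20, -0.25 and 0.21. Within slide 1 they were -0.11, -0.29 and 0.079, and within slide 2 they were -1.17, -0.88 and -0.16, with wild-type 3 as the only wild-type array. The Psmb8 pair rests on the brighter Psmb5 probe, with a change of 0.13, where the dimmer Psmb5 probe had -0.014.

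The mean relative level of the immunoproteasome genes was -0.26, -0.16 and 0.054 in Itpr2KO livers, against 0.024, -0.25 and 0.59 in wild-type livers. For 12 interferon-stimulated genes it was -0.65, -0.39 and -0.13 in Itpr2KO livers, against -0.18, 0.21 and 1.13 in wild-type livers. In both sets wild-type 3 stood above the other 5 arrays. It was also the highest array for the core, at 0.17, the cap, at 0.15, and the assembly chaperones, at 0.11. The antigen presentation genes described next had their highest mean there too, at 0.38. So did the leukocyte markers, at 0.42, while Kupffer cell, T and NK cell, and B and plasma cell markers did not. All 12 interferon-stimulated genes had a lower mean in Itpr2KO, with a median change of -0.81 and summed signals of 29.7 to 37.9 in Itpr2KO, against 40.6 to 91.5 in wild type. By limma 0 of them passed the adjusted threshold and 2 were lower at an unadjusted p under 0.05. Of all genes, 2.66% were lower at that p and 45.9% had a lower mean.

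Of 16 genes of antigen presentation by MHC class I, 13 had a lower mean in Itpr2KO, with a median change of -0.064, and 0 passed by limma, with 1 at an unadjusted p under 0.05. Of all genes, 45.9% had a lower mean and 6.12% an unadjusted limma p under 0.05 in either direction. Tap1, a chain of the transporter that carries proteasome products into the endoplasmic reticulum, had a change of -0.65 ± 0.31, and the class I gene H2-D1 one of -0.23 ± 0.18 (SE, n = 3 arrays each, limma adjusted p = 0.813 and 0.846). Both overlapped between genotypes and had their highest level on wild-type 3. Tap1 had levels of -0.98, -1.52 and -1.14 in Itpr2KO livers, against -1.01, -0.74 and 0.072 in wild-type livers. H2-D1 had levels of 6.33, 6.01 and 6.25 in Itpr2KO livers, against 6.20, 6.33 and 6.73 in wild-type livers.

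Immune cells carry the immunoproteasome as their usual form, and most of their markers had lower means in Itpr2KO without passing the test, B and plasma cell markers excepted. All 8 leukocyte markers, all 9 Kupffer cell markers and 6 of 8 T and NK cell markers had a lower mean in Itpr2KO, with median changes of -0.52, -0.55 and -0.52, and 0 of them passed by limma, with 2, 4 and 0 at an unadjusted p under 0.05. Over all genes, 45.9% had a lower mean in Itpr2KO, and 2.66% were lower at an unadjusted limma p under 0.05. Summed leukocyte signals ran from 29.8 to 52.0 in Itpr2KO and from 42.4 to 58.6 in wild type, and Kupffer cell signals from 108 to 144 in Itpr2KO and from 138 to 275 in wild type. T and NK cell signals ran from 5.80 to 15.0 in Itpr2KO and from 7.34 to 12.0 in wild type, and signals of 6 B and plasma cell markers from 3.32 to 17.3 in Itpr2KO and from 1.01 to 6.82 in wild type. Each of these immune markers was well above background on at least 1 array. Wild-type 3 had the highest leukocyte signal, wild-type 1 the highest Kupffer cell signal and Itpr2KO 3 the highest T and NK cell and B and plasma cell signals. Their part in the immunoproteasome levels was not tested.

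**Figure D5:**
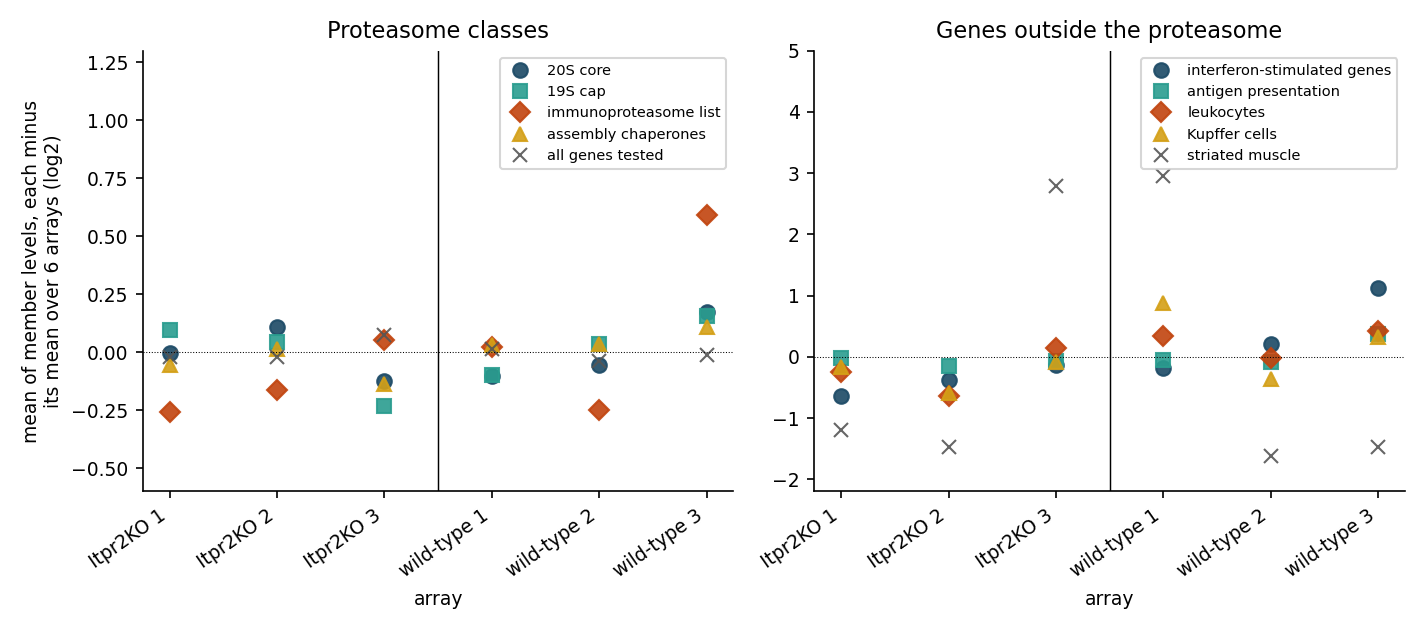
Mean level of each gene list on each array, every gene taken relative to its own mean over the 6 arrays (log2), for proteasome classes (left) and for genes outside the proteasome (right), with Itpr2KO arrays left of the line. Wild-type 3 has the highest value for the immunoproteasome genes, at 0.59, and for interferon-stimulated genes, at 1.13, and striated muscle genes are high on Itpr2KO 3 and wild-type 1. Wild-type 3 is also highest for the core, cap, assembly chaperones, antigen presentation genes and leukocytes, and wild-type 1 for Kupffer cells.

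Promoters of the immunoproteasome genes and of Psmb5 and Psmb6 are shown so that the immunoproteasome genes can be read beside the constitutive genes they are paired with. Wild-type 3 was the highest array for the 4 immunoproteasome genes, and also for 9 of the 14 core genes, Psmb7 among them. The highest array was Itpr2KO 3 for Psmb5 and Itpr2KO 2 for Psmb6. Each line gives the 250 bases before the gene's start, 5′ to 3′ on the strand of the gene, from RefSeq on GRCm38.p6, in lower case with motif matches in capitals, and the table used held no Psmb7 entry.
Psmb8, chr17:34197945-34198194, plus strand: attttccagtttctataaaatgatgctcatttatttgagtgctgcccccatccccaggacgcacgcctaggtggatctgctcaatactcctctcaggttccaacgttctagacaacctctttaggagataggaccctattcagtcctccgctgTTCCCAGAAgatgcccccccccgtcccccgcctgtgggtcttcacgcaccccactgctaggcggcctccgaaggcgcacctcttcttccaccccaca
Psmb9, chr17:34187331-34187580, minus strand: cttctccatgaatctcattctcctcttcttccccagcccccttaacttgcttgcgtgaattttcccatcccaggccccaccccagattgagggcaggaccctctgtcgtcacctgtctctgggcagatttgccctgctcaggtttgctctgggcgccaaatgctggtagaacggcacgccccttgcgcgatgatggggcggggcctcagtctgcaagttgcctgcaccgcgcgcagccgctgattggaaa
Psmb10, chr8:105938393-105938642, minus strand: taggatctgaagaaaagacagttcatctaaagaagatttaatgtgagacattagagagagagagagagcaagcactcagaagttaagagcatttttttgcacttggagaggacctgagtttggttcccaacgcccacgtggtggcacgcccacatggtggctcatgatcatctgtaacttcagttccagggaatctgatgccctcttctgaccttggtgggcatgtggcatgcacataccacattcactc
Psme1, chr14:55578244-55578493, plus strand: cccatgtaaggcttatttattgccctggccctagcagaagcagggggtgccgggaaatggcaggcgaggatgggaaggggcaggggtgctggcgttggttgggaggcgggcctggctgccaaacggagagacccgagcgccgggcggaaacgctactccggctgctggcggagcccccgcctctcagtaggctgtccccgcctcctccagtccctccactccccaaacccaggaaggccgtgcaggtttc
Psmb5, chr14:54617996-54618245, minus strand: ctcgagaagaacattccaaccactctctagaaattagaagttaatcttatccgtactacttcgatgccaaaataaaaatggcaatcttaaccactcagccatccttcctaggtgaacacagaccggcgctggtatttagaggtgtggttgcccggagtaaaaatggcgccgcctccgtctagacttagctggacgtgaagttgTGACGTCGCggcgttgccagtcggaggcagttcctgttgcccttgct
Psmb6, chr11:70525107-70525356, plus strand: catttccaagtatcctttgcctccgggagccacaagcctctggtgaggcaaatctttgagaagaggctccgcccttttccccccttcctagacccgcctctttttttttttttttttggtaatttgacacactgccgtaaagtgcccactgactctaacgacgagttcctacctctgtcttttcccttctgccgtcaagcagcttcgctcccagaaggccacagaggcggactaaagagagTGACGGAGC

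Motifs were searched on both strands from 250 bases before to 50 after each start. They were the antioxidant response element TGACNNNGC, to which the proteasome regulator encoded by Nfe2l1 binds, the interferon-stimulated response element, written as GAAA, any 2 bases and GAAA, and the gamma-activated site TTCNNNGAA, which reads the same on both strands. The Psmb8 window held a gamma-activated site, TTCCCAGAA, beginning at position -97 from the start. The Psme1 window held an interferon-stimulated response element on the opposite strand, TTTCGCTTTC, 9 bases past the start and so outside the line printed. Psmb9 and Psmb10 held no match to these motifs in this window. Tap1, read the other way, starts within the Psmb9 line. Psmb5 and Psmb6 each held an antioxidant response element, TGACGTCGC at position -47 and TGACGGAGC at position -9.

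Over the 44 promoter entries of tested members, which cover 41 of the 48 genes, 13.6% held the antioxidant response element, against 12.4% of all 32851 promoters. The interferon-stimulated response element was found in 5 of the 44 member promoters, or 11.4%, against 3.44% of all promoters. These were the promoters of Psmb3, Psmd4, Psmd9, Psme1 and Psmg4, of which only Psme1 is on the immunoproteasome list. The gamma-activated site was found in 6.82% of member promoters, against 8.30% of all promoters. The motifs did not overlap each other in these member promoters, and a match describes letters only.

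Assembly of the core and of the cap base is helped by dedicated chaperones, and 6 of their 7 genes had a lower mean in Itpr2KO, with a median change of -0.099. Psmg3, whose product helps to build the alpha ring, was the member with the smallest p. It had levels of 2.06, 1.94 and 1.88 in Itpr2KO livers, against 2.26, 2.28 and 2.21 in wild-type livers. All Itpr2KO arrays lay below all wild-type arrays, as for 5.14% of all genes in this direction. The change was -0.29 ± 0.12 (SE), with an unadjusted limma p of 0.0474 and an adjusted p of 0.813, so it did not pass. It was -0.21 within slide 1 and -0.30 within slide 2, and ran from -0.34 to -0.25 when single arrays were left out.

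Psmg4, the partner of the Psmg3 product, had levels of 0.34, 0.45 and 0.54 in Itpr2KO livers, against 0.72, 0.38 and 0.62 in wild-type livers, which overlapped, and is given here because of that partnership. Psmg1 and Psmg2, the other pair of core chaperones, had changes of -0.060 and 0.0086. Psmd5, a chaperone of the cap base, had levels of 1.02, 1.03 and 0.55 in Itpr2KO livers, against 0.92, 1.16 and 1.07 in wild-type livers. The low Itpr2KO 3 set its change of -0.18 ± 0.18 (SE, limma adjusted p = 0.867), which was -0.022 without that array. Psmd9, also a chaperone of the base, had changes of opposite sign on its 2 probes, at -0.072 for the brighter and 0.25 for the dimmer.

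Among other regulators of the core, Psme3, which encodes the nuclear activator, had levels of 3.30, 2.99 and 4.15 in Itpr2KO livers, against 3.16, 2.80 and 3.36 in wild-type livers. Itpr2KO 3 alone lay above the wild-type range, and the change of 0.37 ± 0.32 (SE, limma adjusted p = 0.852) was 0.035 without it. Itpr2KO 3 also had the highest muscle, fat, T and NK cell, and B and plasma cell signals. On wild-type 1, the other muscle array, the Psme3 level was 3.16, inside the range of the remaining arrays. The part of muscle, fat, T and NK cell, or B and plasma cell RNA in the Psme3 level of Itpr2KO 3 was not tested. Psmf1, which encodes an inhibitor of the core, had levels of -0.067, -0.22 and -0.32 in Itpr2KO livers, against -0.31, 0.14 and 0.13 in wild-type livers. Wild-type 1 lay with the Itpr2KO arrays, and the change was -0.19 ± 0.17 (SE, limma adjusted p = 0.858). It was -0.34 without wild-type 1 and -0.11 without wild-type 2, and 0.017 within slide 1 against -0.40 within slide 2. Psme4, another activator of the core, had a change of -0.13 ± 0.18 (SE, limma adjusted p = 0.901), which was 0.036 without Itpr2KO 3.

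The tissue-restricted members were at or near background. Psma8, the alpha subunit of germ cells, was not well above background on any of the 6 arrays. Psmb11, the beta subunit of the thymus, was well above background on Itpr2KO 2 alone, with levels of -7.76, -4.14 and -7.28 in Itpr2KO livers, against -7.70, -7.29 and -7.40 in wild-type livers. Neither was tested. Of the genes that match by name alone, Psme3ip1 had levels of 1.12, 0.83 and 0.73 in Itpr2KO livers, against 1.10, 1.18 and 0.83 in wild-type livers, and Psmc3ip had -5.39, -5.16 and -4.35 in Itpr2KO livers, against -5.36, -4.77 and -5.01 in wild-type livers. Both overlapped, with changes of -0.14 ± 0.17 and 0.077 ± 0.30 (SE, n = 3 arrays each, limma adjusted p = 0.882 and 0.972).

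Of the 11 genes with 2 or more probes, 6 had changes of the same sign on all of them, and the 5 others, Psma4, Psmb5, Psmc1, Psmc3 and Psmd9, had probes of both signs. The changes of a gene's probes lay 0.013 to 0.15 apart for 9 of the 11 genes, 0.32 apart for Psmd9 and 0.61 apart for Psme2b.

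Genes that work with the proteasome also showed no change that passed. Of 27 measured genes for ubiquitin supply, delivery of substrates, and assembly and control of the proteasome, 13 had a lower and 14 a higher mean in Itpr2KO, with a median change of 0.0012. By limma 0 passed the adjusted threshold, and 0 had an unadjusted p under 0.05, against 6.12% of all genes. Ddi2, the protease that activates the regulator encoded by Nfe2l1, had levels of 1.77, 2.05 and 1.41 in Itpr2KO livers, against 1.39, 1.23 and 1.44 in wild-type livers. Itpr2KO 3 lay within the wild-type range, and the change was 0.39 ± 0.19 (SE, limma adjusted p = 0.813). Nfe2l2, which encodes the antioxidant regulator NRF2, had a change of -0.34 ± 0.17, and Ubqln4, which encodes a shuttle factor for ubiquitinated proteins, one of -0.34 ± 0.18 (SE, n = 3 arrays each, limma adjusted p = 0.813 for both). Nfe2l1 itself had a change of -0.014 and Pomp, the maturation factor of the core, one of 0.0012.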

How the data were processed

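Arrays were 1-colour Agilent arrays with Cy3-labelled RNA, per the labels' protocols. The deposited intensity values were made by the scanner software Feature Extraction (11.5.1.1 in the file headers, 10.7.3.1 in the submitters' processing notes), which subtracted background and did not scale between arrays. Control spots and 818 outlier spot values were dropped before averaging the spots of a probe. Of 39429 probes, 28330 received 1 symbol through accessions in a RefSeq gene table of GRCm38.p6, 0 received several and 11099 none. The grid was built on another assembly, so no array coordinates are given. Each gene was represented by its brightest probe on average.

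The authors' deposited log2 matrix of 20644 probes, an alternative, matched the scanner levels centred on each probe's median (correlation 0.996 or more), with the columns of Itpr2KO 2 and Itpr2KO 3 exchanged. Its column medians were -0.0127, 0.0106 and 0.00617 for Itpr2KO and 0.00207, -0.0094 and 0.00497 for wild type, with the choice of its probes not given in the sources used here. Whether the matrix or the scanner files number Itpr2KO 2 and Itpr2KO 3 rightly is not known. The numbers used here follow the scanner files.

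Genotypes were compared with limma 3.58.1 in R 4.3.3 over all genes. The fit was also run on simulated data with independent noise for each gene and array. Those data hold no array shifts shared between genes, so that run does not cover such shifts. Members and lists were chosen with earlier results of these data known. Values on every array are given for the immunoproteasome genes, their counterparts and, by rule, the 2 members of each other class with the smallest p, and the 3 genes with the smallest p of the antigen presentation list and of the ubiquitin list are named, except that 1 item is not reported here. Psmg4, Psmb11, Psme2b, Nfe2l1, Pomp and Cps1 were named after their values were seen. Normexp ran on median signals in place of the planned mean signals, a column the tables lack. The same-numbered arrays of the genotypes did not deviate together (correlations -0.19, 0.042 and -0.28).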

Additional observations from a re-analysis of the deposited data

How the results depend on the processing

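No member passed the adjusted threshold in any of 20 other settings: background correction, scaling, filters, probe rule, outlier spots, slide or replicate block, array weights, the authors' matrix, each array left out and both muscle arrays left out. The replicate block left the medians at 0.0031 (core), -0.052 (cap) and -0.28 (immunoproteasome) and the number of members past the threshold at 0, and the numbers do not pair the arrays. With normexp these medians were -0.62, -0.68 and -0.96, with 47 of 48 members lower, and Psmb5, Psmb6 and Psme3 turned to -0.42, -0.51 and -0.31. The fitted normexp background had a mean of -228 on Itpr2KO 1 and an SD of 1182 on Itpr2KO 2, against an SD of 3.99 or less on each other array but Itpr2KO 1. Plain subtraction with an offset of 50, chosen after seeing this, gave a member median of -0.089. The core and cap medians were 0.065 and 0.14 within slide 1, and -0.18 and -0.21 within slide 2, where the Psmb8 and Psmb9 pair changes were -1.17 and -0.88. The immunoproteasome median was -0.16 within slide 1 and -0.60 within slide 2. Over single arrays left out, the medians ran from -0.067 to 0.089 (core), -0.12 to 0.029 (cap) and -0.42 to -0.054 (immunoproteasome), and changes from -0.26 to 0.18 (Psmb10) and -0.23 to 0.29 (Psmc3ip). Psmb10 was 0.019 with the slide as a random block. Psmc3ip was -0.019 with quantile normalization, -0.0041 with median centring, -0.039 with the slide as a fixed block and -0.39 without the muscle arrays. The cause of these turns was not tested.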
